A study of Mus musculus with 27 samples.

Results

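The microRNA hairpins miR-346, miR-3072, miR-3547, miR-5627 and miR-3109 were followed through both of their arms in mouse cortex after an experimental stroke. The 10 mature miRNAs are 10 of 1842 entries in a table of raw counts over 27 small RNA libraries. They were selected on the levels of ischemic cortex at 24 h, where 1 arm of each hairpin was more than 16-fold higher. The 24 h values are therefore given as a description without a test. The arm that led the choice is called the rising arm below (mmu-miR-346-3p, mmu-miR-3072-5p, mmu-miR-3547-5p, mmu-miR-5627-3p and mmu-miR-3109-5p), and the arm across the loop is called its partner.

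The cortex came from wild-type C57BL6 mice of 7 to 8 weeks, and the middle cerebral artery had been occluded for 35 min with a suture (MCAO). Ipsilateral cortex, on the occluded side, and contralateral cortex, on the opposite side, were taken 3, 6, 12 or 24 h into reperfusion, and sham mice had the same anesthesia and artery exposure with no suture inserted. Each of the 9 groups has 3 libraries, and each replicate number stands for another day of surgery. The number of animals behind a library, and whether both hemispheres of a number come from 1 animal, are not stated in the labels. The RNA was total RNA from dissected cortex, so the counts include strands that are not bound to Argonaute. In such bulk tissue, fewer cells of a type and less RNA per cell cannot be told apart. Total counts per library ran from 856591 to 1903416, and 1 count was worth 0.409 to 1.36 CPM (counts relative to the library total times its TMM factor). Neuronal miRNAs that mark cortex (miR-124-3p, miR-9-5p, miR-128-3p and miR-138-5p) summed to between 64520 and 193200 CPM in every library. The third ipsilateral library at 6 h and the second sham library stood apart through epithelial and sensory markers, which summed to 25450 and 29810 CPM there and to at most 960 CPM in all other libraries. Most of both sums came from 1 entry, miR-182-5p, at 20198 and 22388 CPM.

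A miRNA hairpin is cut from its transcript by Drosha, or released by splicing when it fills an intron (a mirtron). Dicer then removes the loop and leaves a duplex of the 5p and the 3p strand. Argonaute keeps one strand, the guide, whose bases 2 to 8 form the seed that pairs with target mRNAs, and the other strand, the passenger, is usually degraded. Both strands of a duplex are made in equal numbers, so the proportion of the arms in tissue depends on what is loaded and what persists after cutting.

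The mature sequences are shown because the arms of a hairpin are compared throughout. They are those of RefSeq for GRCm38.p6, written 5′ to 3′ with the seed in capitals, and all 10 members were matched by name. In each pair the rising arm stands above its partner.
mmu-miR-346-3p: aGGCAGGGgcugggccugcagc
mmu-miR-346-5p: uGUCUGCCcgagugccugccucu
mmu-miR-3072-5p: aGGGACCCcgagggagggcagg
mmu-miR-3072-3p: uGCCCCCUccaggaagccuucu
mmu-miR-3547-5p: gUGGGAAGagggguggggcccggga
mmu-miR-3547-3p: uGAGCACCaccccucucucag
mmu-miR-5627-3p: aCAGGGCUcuccggcgccccucgu
mmu-miR-5627-5p: aGAGGGUGcgccgggcccugcg
mmu-miR-3109-5p: aAUGGAUGcgaugguucccaugcu
mmu-miR-3109-3p: uAGGGCCAucucauccagaua

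No seed is shared between members, so the 5 rising arms are 5 different miRNAs by target pairing. Guanine made up 50% of the rising arm and 26.1% of the partner in miR-346, 54.5% and 18.2% in miR-3072, and 64% and 14.3% in miR-3547. The rising arm also held more guanine in miR-3109 (29.2% against 19%), and less in miR-5627 (29.2% against 50%). The median over the 1290 tested entries with a RefSeq sequence was 27.3% guanine. The run GGG occurs in 4 of the 5 rising arms and in 2 of the 5 partners, against 30.5% of those 1290 entries, and GGGG in 2 rising arms and 0 partners, against 10.9%. All partners except miR-5627-5p begin with U. The rising arms begin with A, except miR-3547-5p, which begins with G.

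The hairpins lie at 5 separate loci on GRCm38. miR-346 (chr14:34894609-34894706, plus strand) sits in an intron of Grid1, which encodes a delta-type glutamate receptor. miR-3072 (chr12:109747878-109747960, plus strand) lies in Mirg, a non-coding transcript of an imprinted miRNA cluster, and 58 of its 83 bases are annotated as exon. miR-3109 (chr9:69456944-69457031, plus strand) is in an intron of Anxa2, which encodes the membrane-binding protein annexin A2. miR-5627 (chr12:44210313-44210373, plus strand) is on the strand opposite to Dnajb9, a chaperone gene of the endoplasmic reticulum, and overlaps the UTR exon at its start by 14 bases. miR-3547 (chr17:25245551-25245638, minus strand) fills a whole intron of Baiap3, a gene of vesicle exocytosis, with 0 bases between the hairpin and the exon on either side. This is the layout of a mirtron, and the hairpin is shown because its arms form the ends of that intron (arms in capitals).
miR-3547 hairpin: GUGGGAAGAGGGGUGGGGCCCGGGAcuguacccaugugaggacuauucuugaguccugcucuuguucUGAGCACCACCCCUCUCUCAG

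Outside ischemic cortex both arms were rare, and the rising arm was not always the minor one. Over the 15 contralateral and sham libraries the median level was 16.5 CPM for miR-346-3p and 34.5 CPM for its partner, and the partner had more counts in 15 of 15 libraries. miR-5627 was the reverse, with 16 CPM for the 3p arm and 2.85 CPM for the 5p arm, and the 3p arm was larger in 15 of 15 libraries. miR-3547-5p had a median of 12.2 CPM against 5.51 CPM for its partner and was larger in 12 of the 15 libraries. The arms of miR-3072 were near balance, with medians of 8.16 CPM for 5p and 8.07 CPM for 3p, and the 5p arm was larger in 7 libraries, smaller in 5 and equal in 3. miR-3109-5p had a median of 5.34 CPM against 8.54 CPM for its partner, which was larger in 11 of the 15. The choice on a rise at 24 h therefore took the minor arm of miR-346 and miR-3109, the major arm of miR-5627 and miR-3547, and either arm of a balanced pair in miR-3072. These levels rest on few counts, with a median of 3 counts for miR-5627-5p and 33 for miR-346-5p, the lowest and the highest of the 10 members.

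**Figure D1:**
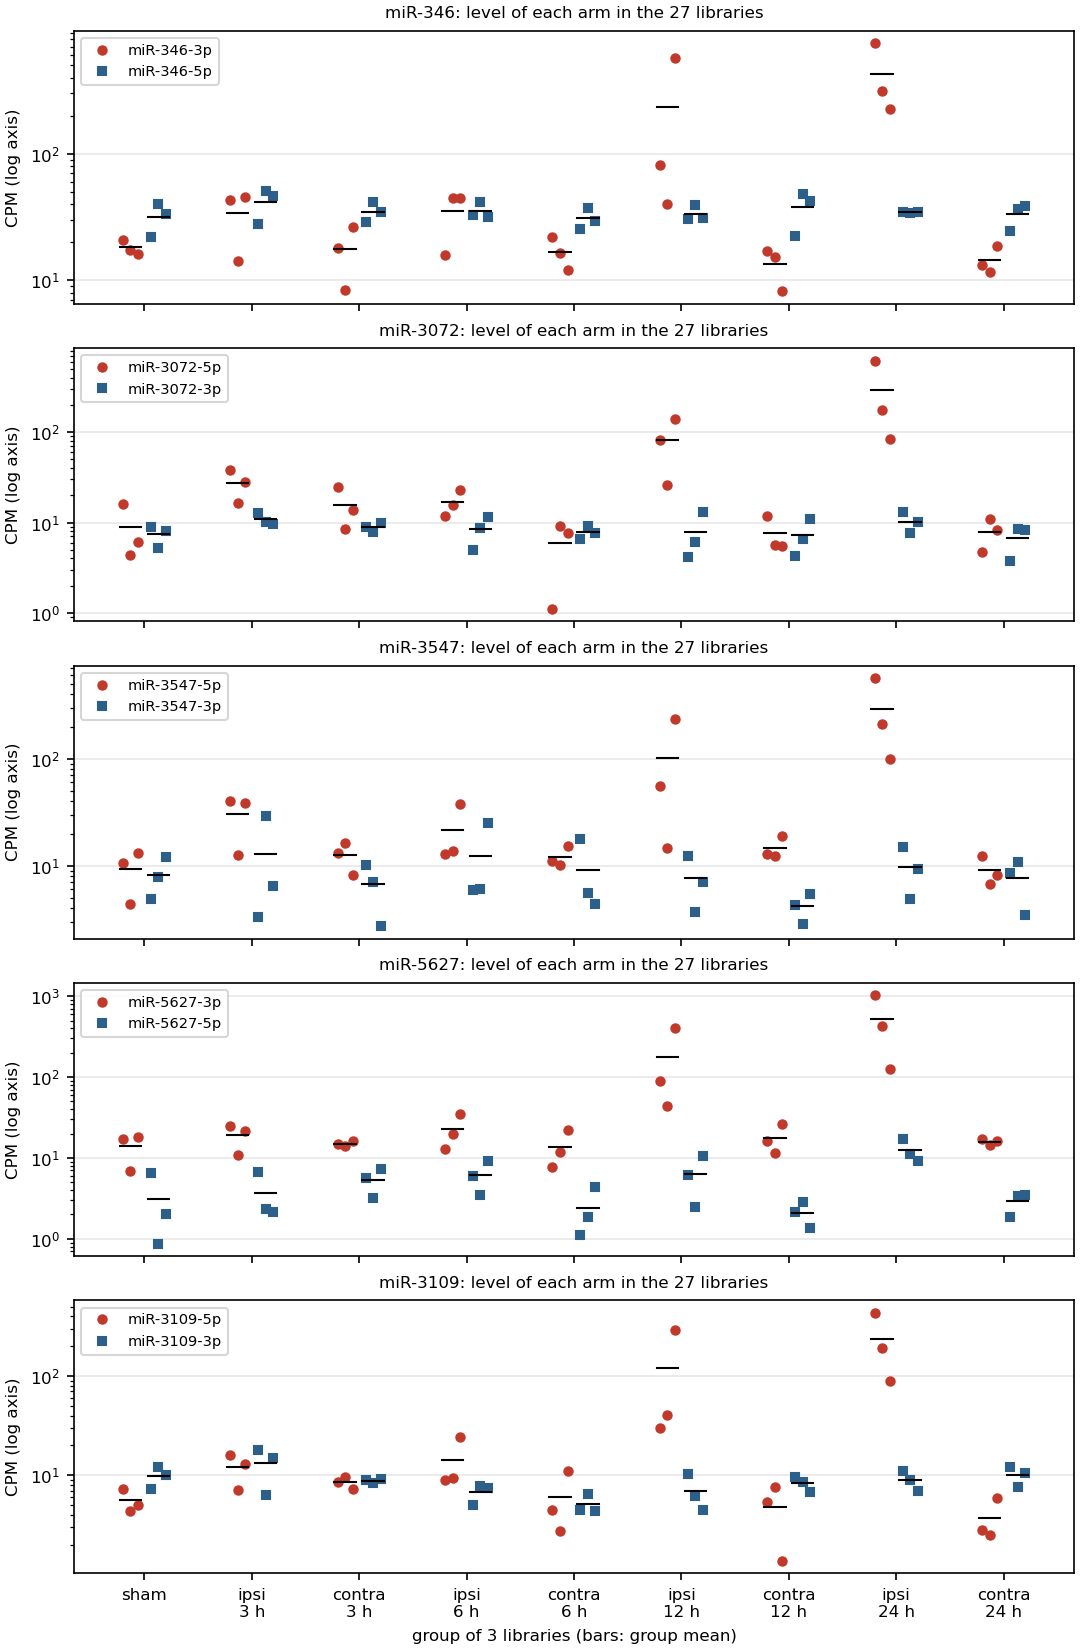
Level of each arm in CPM (log axis) in every library, with 1 panel per hairpin, circles for the rising arm, squares for its partner and bars for the group means of 3 libraries. In ipsilateral cortex at 12 and 24 h the circles stand above the squares, by little for miR-346 in the second library of 12 h (40.5 against 39.2 CPM), and no square is above 50.4 CPM in any of the 27 libraries.

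At 24 h, the time that chose the members, ipsilateral levels of the rising arms ran from 83.3 to 1025 CPM. miR-346-3p was at 747, 311 and 228 CPM in ipsilateral cortex, against 13.2, 11.8 and 18.7 CPM in contralateral cortex and 21, 17.5 and 16.1 CPM in sham cortex. miR-5627-3p was at 1025, 426 and 127 CPM in ipsilateral cortex, against 17, 14.3 and 16.3 CPM in contralateral cortex. The first ipsilateral library held the highest value and the third the lowest for each of the 5 rising arms. Averages of the other rising arms were 295 ± 289 CPM for miR-3072-5p, 293 ± 245 CPM for miR-3547-5p and 239 ± 178 CPM for miR-3109-5p in ipsilateral cortex (SD, n = 3), against 7.93 ± 3.11, 9.04 ± 2.86 and 3.73 ± 1.83 CPM in contralateral cortex (SD, n = 3). Entries listed as signs of RNA fragments (miR-6240, miR-712-5p and miR-712-3p) summed to 1631 to 4638 CPM in the same ipsilateral libraries, against 42.4 to 93.3 CPM in contralateral cortex. The neuronal markers summed to 67340 to 99750 CPM in ipsilateral cortex, against 105400 to 159700 CPM in contralateral cortex, without overlap. They overlapped sham cortex (96100 to 155300 CPM). Sums for endothelium (866 to 1349 against 1612 to 1870 CPM), muscle and choroid plexus were also lower than contralateral without overlap. The epithelial and sensory sum was higher (568 to 960 against 443 to 497 CPM), and the other lists overlapped. TMM factors were 1.18 to 1.43 in ipsilateral and 0.83 to 0.99 in contralateral libraries. The part of these entries and of scaling in the levels at 24 h was not tested. The fitted folds of ipsilateral over contralateral cortex were 29.5 for miR-346-3p, 36.5 for miR-3072-5p, 32.1 for miR-3547-5p, 33 for miR-5627-3p and 64.5 for miR-3109-5p.

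The partners at 24 h give the contrast between the arms, and they too come from the libraries of the choice. miR-346-5p was at 34.8, 34 and 34.7 CPM in ipsilateral cortex, against 24.5, 37 and 38.5 CPM in contralateral cortex, a fold of 1.04. The folds were 1.51 for miR-3072-3p, 1.23 for miR-3547-3p and 0.899 for miR-3109-3p. miR-5627-5p stood apart, with 17.1, 11.1 and 9.26 CPM in ipsilateral cortex, against 1.88, 3.36 and 3.5 CPM in contralateral cortex, a fold of 4.21 with groups that do not overlap, as for 16.3% of all entries at that time. A fold over 16 was reached by 41 of the 1470 tested entries (2.79%), and all 5 rising arms count among them by the choice. Of the 498 hairpins with both arms tested, 19 had an arm above 16-fold, in 13 of those the other arm was within 2-fold of contralateral cortex, and in 0 were both arms above it. The hairpin arms just inside and just outside that limit were miR-183-3p at 17.1-fold and miR-7648-5p at 15.7-fold, both named for their values and neither a member. The 5 hairpins are thus a selection from those 19, and the lowest of them is 29.5-fold.

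The comparison at 12 h uses libraries that did not choose the members, and the rising arms stood above contralateral cortex on the ipsilateral side there as well. miR-346-3p was at 81.1, 40.5 and 575 CPM in ipsilateral cortex, against 17.1, 15.2 and 8.19 CPM in contralateral cortex and 21, 17.5 and 16.1 CPM in sham cortex. miR-3109-5p was at 29.8, 40.5 and 294 CPM in ipsilateral cortex, against 5.34, 7.6 and 1.36 CPM in contralateral cortex and 7.29, 4.36 and 5.04 CPM in sham cortex. In both, all ipsilateral libraries lie above all contralateral and sham libraries, and the third ipsilateral library is far above the other two. miR-346-3p rose by 4.08 ± 0.76 on the log2 scale (SE, edgeR quasi-likelihood test, Benjamini-Hochberg adjusted p = 0.00166) and miR-3109-5p by 4.58 ± 0.80 (adjusted p = 0.000915).

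miR-3072-5p was at 82.2, 25.7 and 139 CPM in ipsilateral cortex, against 11.8, 5.7 and 5.46 CPM in contralateral cortex and 16.2, 4.36 and 6.05 CPM in sham cortex. miR-5627-3p was at 89.4, 44.1 and 399 CPM in ipsilateral cortex, against 16, 11.4 and 25.9 CPM in contralateral cortex and 17, 6.98 and 18.2 CPM in sham cortex. Groups did not overlap in either, and the edgeR log2 fold changes were 3.41 ± 0.74 for miR-3072-5p (adjusted p = 0.00591) and 3.34 ± 0.71 for miR-5627-3p (adjusted p = 0.00527). miR-3547-5p was at 55.5, 14.7 and 234 CPM in ipsilateral cortex, against 12.8, 12.3 and 19.1 CPM in contralateral cortex and 10.5, 4.36 and 13.1 CPM in sham cortex. Its second ipsilateral library lies below the third contralateral one, so these groups overlap. It passed the edgeR test at 2.79 ± 0.73 (adjusted p = 0.0241), and with the day of surgery as a replicate block it did not, at 2.52 (adjusted p = 0.0617).

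At 12 h 5 of the 10 members were called, the 5 rising arms, where the share of all tested entries called was 4.35% (64 of 1470, all higher in ipsilateral cortex). In 4 rising arms the 3 ipsilateral libraries lay above the 3 contralateral ones, which 5.99% of all entries did. Every rising arm was higher on the ipsilateral side on each of the 3 days of surgery, with ratios on replicate days 1, 2 and 3 of 4.75, 2.66 and 70.3 for miR-346-3p and 5.57, 5.33 and 215 for miR-3109-5p. The last of these rests on 1 contralateral count. Of all 1470 entries 13.3% were higher on each of the 3 days at 12 h, and the partner miR-3547-3p was too.

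None of the 5 partners was called at 12 h. miR-346-5p was at 30.8, 39.2 and 30.9 CPM in ipsilateral cortex, against 22.4, 48.4 and 42.3 CPM in contralateral cortex, which edgeR put at a log2 fold change of -0.17 ± 0.32 (SE, adjusted p = 0.999), a sign that turns to 0.03 when libraries are scaled by total counts. The log2 fold change was 0.19 ± 0.44 for miR-3072-3p and -0.29 ± 0.41 for miR-3109-3p (edgeR adjusted p = 0.999 and 0.998). It was 0.92 ± 0.89 for miR-3547-3p (edgeR adjusted p = 0.956). The partner with the largest difference was miR-5627-5p at 6.16, 2.45 and 10.6 CPM in ipsilateral cortex, against 2.14, 2.85 and 1.36 CPM in contralateral cortex, 1.57 ± 0.70 by edgeR (adjusted p = 0.34) from 20 counts in all against 6. For each of the 5 partners the ipsilateral and contralateral libraries overlap.

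**Figure D2:**
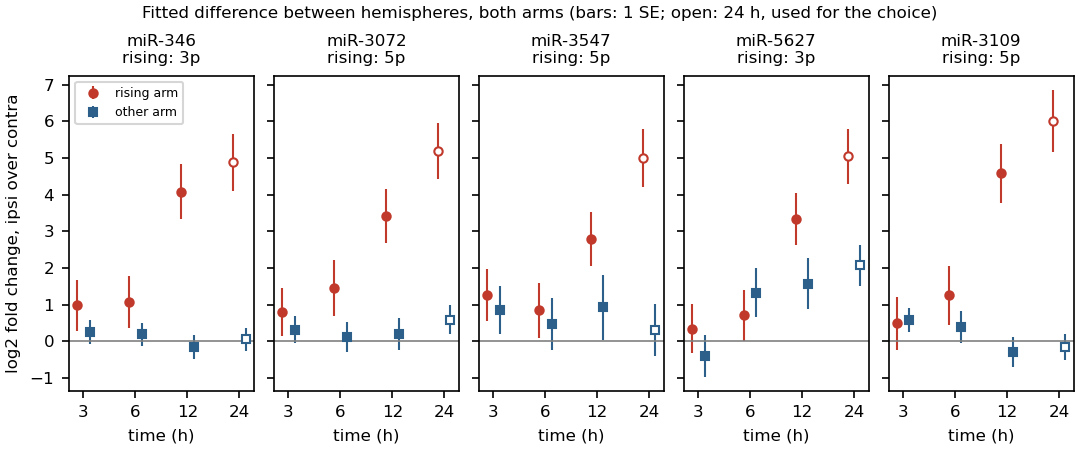
Fitted log2 fold change of ipsilateral over contralateral cortex by time in h, with 1 panel per hairpin, circles for the rising arm, squares for its partner and bars of 1 SE. Open symbols mark 24 h, the time of the choice. The arms lie within about their errors of each other at 3 h. At 12 h the rising arms stand between 2.79 and 4.58 and the partners between -0.29 and 1.57. The change in arm ratio at 12 h did not pass for miR-5627 and miR-3547 (limma adjusted p = 0.206 and 0.607).

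Against sham cortex the picture at 12 h was the same for the members. The rising arms were called with log2 fold changes of 3.67 for miR-346-3p, 3.19 for miR-3072-5p, 3.44 for miR-3547-5p, 3.66 for miR-5627-3p and 4.42 for miR-3109-5p (edgeR adjusted p from 0.00112 to 0.00713), and no partner was. The share of all entries called higher in that comparison was 4.76%, and 5.44% were called in either direction. All 3 ipsilateral libraries lay above all 3 sham libraries for each rising arm, which was so for 6.12% of entries. The partners had log2 fold changes from -0.51 for miR-3109-3p to 1.03 for miR-5627-5p. Both comparisons use the ipsilateral libraries of 12 h and are not independent of each other.

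The arms were then set against each other within each library, which needs no scaling between libraries. The measure is the log2 ratio of the rising arm's count to its partner's, with 0.5 added to each, tested with limma over 702 hairpins with both arms in the table. At low counts the ratio still depends on depth, through the 0.5 added and through sampling noise. The ratio rose in ipsilateral against contralateral cortex at 12 h by 4.28 ± 0.78 for miR-3109 (SE, limma adjusted p = 0.00247), by 3.31 ± 0.81 for miR-346 (adjusted p = 0.0199) and by 3.08 ± 0.69 for miR-3072 (adjusted p = 0.00994). The change in ratio was 1.54 ± 0.59 for miR-5627 and 1.27 ± 0.91 for miR-3547, and neither passed the limma test (adjusted p = 0.206 and 0.607). That is 3 of the 5 hairpins, where 3.13% of all 702 (22) were called. Against sham cortex, a comparison added after the data were seen, the changes in ratio were 4.12 for miR-3109 and 3.09 for miR-3072 (limma adjusted p = 0.00269 and 0.00961), and 2.63 for miR-346, 2.85 for miR-3547 and 2.02 for miR-5627 (limma adjusted p = 0.0803, 0.0953 and 0.0598). The first 2 were called, beside 3.56% of all hairpins.

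The arms were also compared as shares of their hairpin's counts. miR-346-3p held 72.7% ± 22.1 of the miR-346 counts in ipsilateral cortex at 12 h (SD, n = 3, 764 of the 3p arm to 97 of the 5p arm), against 27.8% ± 13.9 in contralateral and 37.3% ± 10.2 in sham cortex. Its second ipsilateral library was at 50.8%, just above the highest value of 49.1% in the 15 contralateral and sham libraries. miR-3109-5p held 86.6% ± 12.1 in ipsilateral cortex at 12 h, against 33.1% ± 15.4 in contralateral and 36.5% ± 12.2 in sham cortex. miR-3072-5p held 89.1% ± 7.49 in ipsilateral cortex, against 50.9% ± 20.4 in contralateral and 50.9% ± 11.8 in sham cortex. For miR-5627 the share was high on both sides, at 95.2% ± 1.98 in ipsilateral and 87.7% ± 7.51 in contralateral cortex. miR-3547-5p held 86.3% ± 9.37 in ipsilateral and 78% ± 3.13 in contralateral cortex, with 52% ± 16.4 in sham cortex. The contralateral shares at 12 h rest on few counts, given here as totals of the rising arm and its partner. They were 14 and 23 for miR-3109, 21 and 19 for miR-3072, 46 and 6 for miR-5627, and 39 and 11 for miR-3547. At 24 h every rising arm held between 86.8% and 98.4% of its hairpin in every ipsilateral library.

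**Figure D3:**
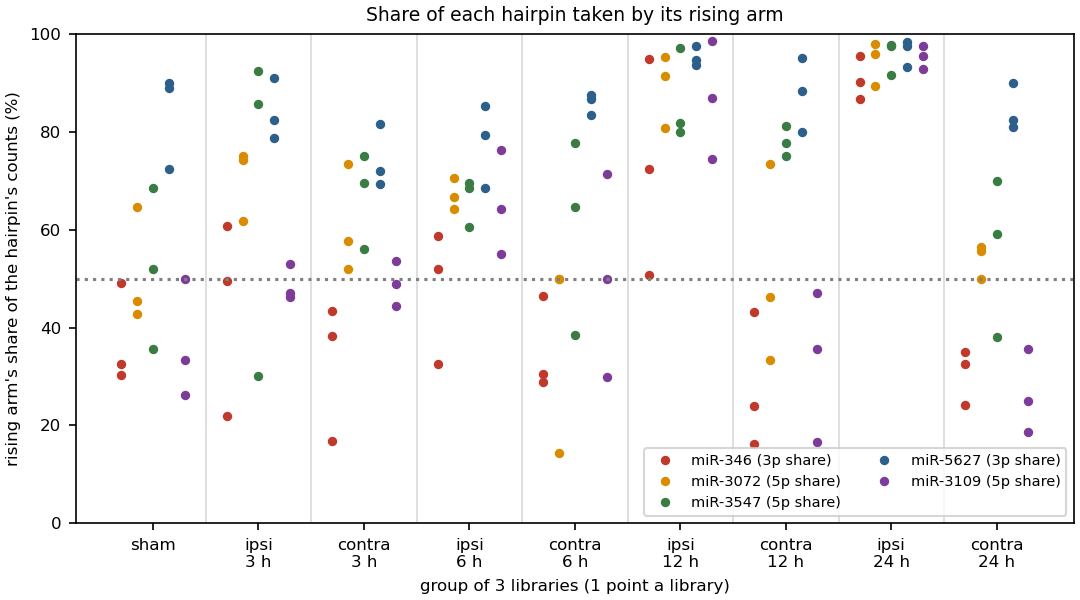
Share of each hairpin's counts taken by its rising arm, in percent, with 1 point per library and the dotted line at equal arms. In ipsilateral cortex at 12 and 24 h all points lie above the line, while miR-346 (red) lies below it in every contralateral and sham library.

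Among the 498 hairpins with both arms tested, 33 had 1 arm called higher at 12 h (6.63%), 0 had both arms called and 465 had neither. The 5 hairpins are 5 of those 33, and 2 arms of 1 hairpin had to pass the test separately for both to count.

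**Figure D4:**
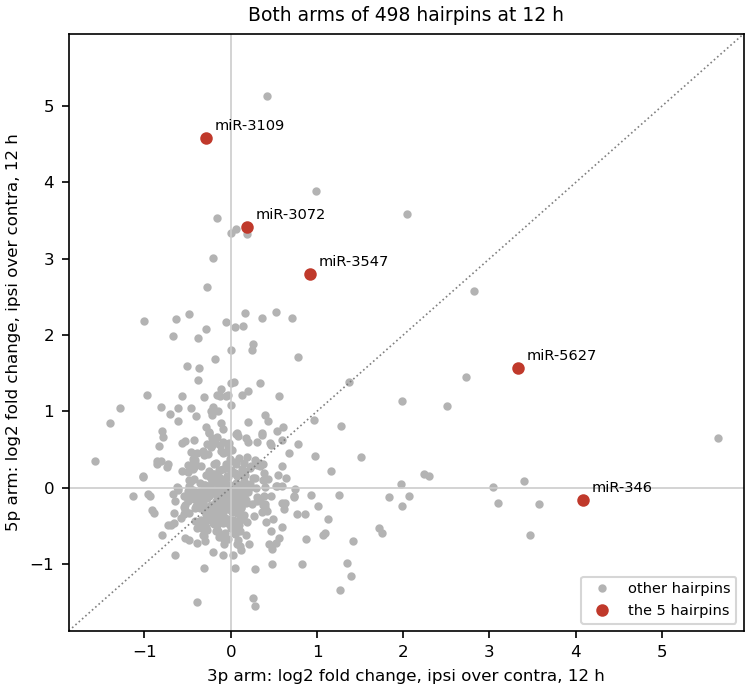
Fitted log2 fold change of the 5p arm against that of the 3p arm at 12 h, ipsilateral over contralateral cortex, for 498 hairpins. The 5 hairpins (red) lie away from the dotted diagonal of equal change, with miR-346 near the horizontal axis, miR-3109 and miR-3072 near the vertical axis, and miR-5627 and miR-3547 between an axis and the diagonal.

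At 3 and 6 h none of the 10 members was called, and 0% of all tested entries were. Before adjustment 58 entries had a p under 0.05 at 3 h and 64 at 6 h, and 0 members were among them. With DESeq2 the calls were 11 of 555 entries with an adjusted p at 3 h and 4 of 1467 at 6 h, also with 0 members. At 3 h DESeq2 gave no adjusted p to miR-3072-3p, miR-3547-3p, miR-5627-5p and miR-3109-3p, so these partners could not be called. The fitted log2 fold changes of the rising arms ran from 0.34 to 1.27 at 3 h and from 0.71 to 1.46 at 6 h, where the median over all entries was 0.01 and 0.05. Partners ran from -0.41 to 0.85 at 3 h and from 0.11 to 1.33 at 6 h. The largest of these values was that of miR-3072-5p at 6 h, with 11.9, 15.5 and 23.2 CPM in ipsilateral cortex, against 1.1, 9.18 and 7.67 CPM in contralateral cortex. Its groups do not overlap, as for 7.48% of all entries, and its log2 fold change of 1.46 ± 0.77 did not pass (edgeR adjusted p = 0.988). The arm ratio was called for 0 of the 5 hairpins and for 0% of 702 at either time, with changes from -0.02 to 0.81 at 3 h and from -0.54 to 1.70 at 6 h. Of all hairpins, 21 reached an unadjusted limma p under 0.05 at 3 h and 36 at 6 h. miR-3072 is 1 of those 36, with a change of 1.70 ± 0.69 (limma adjusted p = 0.648). Within days of surgery, 4 of the 5 rising arms (all except miR-346-3p) and the partners miR-346-5p, miR-5627-5p and miR-3109-3p were higher on the ipsilateral side on each of the 3 days at 6 h, as were 18% of all entries. At 3 h this held for miR-346-3p and miR-3072-5p and for 0 partners, beside 16% of all entries. The third ipsilateral library at 6 h was highest for all 5 rising arms and stood apart through epithelial and sensory markers. Without it the log2 fold changes of the rising arms ran from 0.14 to 1.16. Against sham cortex 0 members were called at 3 h or 6 h, among 0% of entries, where 86 and 54 entries had a p under 0.05 before adjustment. At 3 h these include miR-3547-5p at 1.70 and miR-3072-5p at 1.61 on the log2 scale (edgeR adjusted p = 0.68 for both), and at 6 h 0 members.

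Whether the difference between hemispheres was larger at 12 h than at 3 h was tested directly. The increase was 4.09 ± 1.08 on the log2 scale for miR-3109-5p, 3.11 ± 0.99 for miR-346-3p, 2.99 ± 0.97 for miR-5627-3p, 2.62 ± 0.98 for miR-3072-5p and 1.53 ± 1.00 for miR-3547-5p. None passed edgeR's adjustment (adjusted p from 0.369 to 1), nor did any of the 1470 entries (0%), with 77 entries and 5 members at an unadjusted p under 0.05. Those 5 are 4 of the rising arms and the partner miR-5627-5p (1.97, edgeR adjusted p = 0.914), while miR-3547-5p is not among them. DESeq2 called 4 entries, among them miR-3109-5p at 4.19 (adjusted p = 0.0331). For the arm ratio, limma called the same difference between 12 h and 3 h in 0 of 702 hairpins.

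Contralateral cortex was also tested against sham cortex. None of the 10 members was called at 3, 6 or 12 h, among 0% of entries, and 26, 34 and 64 entries had a p under 0.05 before adjustment. Rising arms ran from -0.55 to 0.82 on the log2 scale over the 3 times and partners from -0.97 to 0.70. The single member at an unadjusted p under 0.05 was a partner, miR-3109-3p at 6 h, with 4.41, 6.43 and 4.38 CPM in contralateral cortex against 7.29, 12.2 and 10.1 CPM in sham cortex (log2 fold change -0.92 ± 0.41, edgeR adjusted p = 0.9997).

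The rising arms shared their highest library in ipsilateral cortex at 6, 12 and 24 h, and 1 library carried much of the 12 h result. Summed over the 5 rising arms, ipsilateral libraries at 12 h held 338, 165 and 1641 CPM, against 63.1, 52.2 and 60 CPM in contralateral and 72, 37.5 and 58.5 CPM in sham cortex. The partners summed to 63.7, 57.6 and 66.2 CPM in the same ipsilateral libraries, against 42.7, 69.3 and 66.9 CPM in contralateral cortex. The third ipsilateral library was highest for each of the 5 rising arms at 12 h, as was the third at 6 h and the first at 24 h. In ipsilateral cortex at 3 h the first library was highest for 4 of them. No library was highest for more than 3 in any contralateral group or in sham cortex. Without the third ipsilateral library at 12 h only miR-3109-5p stayed called, at 2.77 ± 0.64 (edgeR adjusted p = 0.0326). Calls over all entries fell there too, to 10 of 1544 from 64 of 1470 with every library. The other rising arms then were at 2.15 for miR-346-3p, 2.80 for miR-3072-5p, 1.92 for miR-5627-3p and 1.27 for miR-3547-5p (edgeR adjusted p = 0.0964, 0.11, 0.28 and 0.998). Leaving out a contralateral library of 12 h also ended calls, with 4 members called without the first, 2 without the second and 3 without the third. Over all entries 34 of 1543, 28 of 1515 and 24 of 1546 were called in these fits. miR-346-3p and miR-3109-5p were called without any 1 of these 3 libraries, and miR-3547-5p was lost whichever of them was left out, at 2.68 to 3.02 (edgeR adjusted p from 0.0784 to 0.143). miR-3072-5p was lost at 3.23 without the second and at 3.25 without the third (edgeR adjusted p = 0.0578 and 0.0524), and miR-5627-3p at 3.09 without the second (edgeR adjusted p = 0.0524). Of the arm ratios miR-3109 was called without any 1 of the 6 libraries, at 2.99 ± 0.66 (limma adjusted p = 0.0215) without the third ipsilateral one. Those of miR-346 and miR-3072 were lost without the third ipsilateral, the second contralateral or the third contralateral library, at 2.15 to 3.20 for miR-346 and 2.59 to 2.99 for miR-3072 (limma adjusted p from 0.0564 to 0.224), and that of miR-3072 also without the first ipsilateral library (2.58, limma adjusted p = 0.0522).

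An entry known to match ribosomal RNA was high in the same libraries. miR-6240 was at 228, 165 and 2984 CPM in ipsilateral cortex at 12 h, against 22.4, 41.8 and 30 CPM in contralateral and 53.4, 48.9 and 81.7 CPM in sham cortex. Of the 3 entries listed as signs of RNA fragments (miR-6240, miR-712-5p and miR-712-3p), 2 were called higher at 12 h, with summed levels of 178 to 3075 CPM in ipsilateral, 27.8 to 47.5 CPM in contralateral and 56.7 to 85.8 CPM in sham cortex. None of the 3 was at 0 throughout a group. Their part in the result was not tested. The 8 marker lists were for neurons, oligodendrocytes, leukocytes and microglia, endothelium, erythrocytes, choroid plexus, epithelial and sensory cells, and muscle. In that order 4, 2, 4, 1, 2, 2, 6 and 1 of their entries could be tested. Of these 0 were called at 12 h, where 4.35% of all entries were, and 0 among so few is near that share. The leukocyte and microglia list summed to 392.4 to 1163 CPM in ipsilateral, 530 to 1060 CPM in contralateral and 449 to 863 CPM in sham cortex. Without the second sham library, which stood apart through epithelial and sensory markers, 3 rising arms were called against sham at 12 h. miR-3072-5p was then at 2.87 and miR-3547-5p at 3.11 on the log2 scale (edgeR adjusted p = 0.0744 and 0.0639). Without the third sham library 4 were called, and miR-3072-5p was at 3.00 (edgeR adjusted p = 0.0523). Without the third ipsilateral library 1 was called against sham cortex, miR-3109-5p at 2.63 (edgeR adjusted p = 0.0481), and the other rising arms were at 1.74 to 2.59 (edgeR adjusted p from 0.0767 to 0.258). The share of all entries called in these fits against sham cortex is not given here. The lost calls are therefore not shown to be particular to the members.

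Across all 27 libraries the log2 levels of any 2 rising arms correlated at 0.906 to 0.953 (Pearson, 10 pairs), and at 0.785 to 0.891 without the 3 ipsilateral libraries of 24 h. Those of 2 partners correlated at -0.217 to 0.452, and those of a rising arm with its own partner at -0.068 to 0.763. These correlations share their libraries and depth and are descriptions. The 3 entries outside the hairpins whose levels were most alike were miR-6240, miR-7034-3p and miR-1247-5p for miR-346-3p (0.965, 0.96 and 0.959), and miR-718, miR-6240 and miR-7034-3p for miR-3109-5p (0.959, 0.948 and 0.948). For miR-3072-5p they were miR-7654-3p, miR-6538 and miR-6937-5p (0.952, 0.943 and 0.93), for miR-3547-5p miR-341-5p, miR-6538 and miR-8098 (0.957 each), and for miR-5627-3p miR-7040-5p, miR-7666-5p and miR-718 (0.971, 0.967 and 0.961). This ranking uses the ipsilateral libraries of 24 h that chose the members. Over the other 24 libraries, a choice made after the data were seen, the same entries correlated at 0.848 to 0.934 and held ranks 1 to 6 of 1460.

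Of 4 other entries with the seed of a member 2 could be tested, both for miR-3547-5p, and neither was called at 12 h. The seed of miR-3547-5p, UGGGAAG, is also that of miR-6368 and miR-6405, whose log2 fold changes at 12 h were -0.33 and 0.03 (edgeR adjusted p = 0.998 and 0.999), and of miR-6404, which was too low to test with 108 counts over 27 libraries. The seed of miR-346-3p, GGCAGGG, is shared with miR-7001-5p, also too low to test with 123 counts. Guanine content, described above for the members, was also higher among the entries called at 12 h, with a median of 38.1% in the 54 that have a sequence against 26.1% in the 1236 not called. GGG occurred in 57.4% of the called and 29.3% of the others. The 5 rising arms are among those 54, and these shares are a description without a test. No other RefSeq mature miRNA came within 3 differences of a member. In the GENCODE vM21 transcripts the members matched their own hairpins alone, except miR-3072-3p, which is also found in a Mirg transcript. Only exact matches were sought. Transcripts leave out introns, so miR-346, miR-3109 and miR-3547 could not match their host genes there.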

How the data were processed

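The values are raw counts that the authors deposited in 1 table, with 1842 mature miRNAs as rows and the 27 libraries as columns, and 0 columns were left out. Per the labels' protocols, Trizol RNA was made into TruSeq small RNA libraries with inserts of 15 to 35 bp and read as 69 bp single ends on a MiSeq. Per the submitters' processing notes Novoalign and edgeR were used, with no version. The genome build, the annotation release and how reads with several matches were counted are not stated there.

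Counts were tested with edgeR 4.0.16 in R 4.3.3 (TMM factors, robust quasi-likelihood F test, 1 mean per group, 18 residual degrees of freedom). Low entries were removed with filterByExpr, which left 1470 entries with 99.9% of the counts and took out 372. All 10 members passed it, also when it was set without the 24 h libraries. P-values were adjusted by Benjamini-Hochberg over all entries tested, and a call is an adjusted p under 0.05. Arm ratios of 702 hairpins, with at least 10 counts of each arm, were tested with limma 3.58.1 (pseudocount 0.5). CPM are counts scaled by library total and TMM factor. The tests were run on simulated data with the same spread for every entry and no effect of the day of surgery. Such data do not cover entries as variable as the rising arms at 12 h. Sequences came from RefSeq and loci from GENCODE vM21.

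The members and the marker lists were chosen with earlier results of these data known. The naming rule takes all members, the 3 tested entries most correlated with each rising arm, the markers, and entries that share a seed with a member. The series' design text gives each replicate number as a separate day of surgery, so the numbers pair libraries. The mean correlation of their deviations from the group means was 0.233 in 108 pairs with the same number and -0.116 in 216 with different numbers. Replicates differed beyond sampling noise (chi-square per degree of freedom at least 11.2). Alternatives were total counts, RLE factors, DESeq2 1.42.0, no filter, a replicate block, leaving out the 24 h libraries or each replicate, and for arm ratios a pseudocount of 2 and a stricter filter.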

Additional observations from a re-analysis of the deposited data

How the results depend on the processing

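Counts of 1 to 71 per library set the precision of the partners and of every level outside ischemic cortex, and 3 libraries per group set that of the tests. With each replicate left out in turn, 1 to 5 members were called at 12 h against contralateral cortex and 1 to 5 against sham cortex, and 1 to 3 of the 5 arm ratios were called. Calls over all entries against contralateral cortex ran from 10 of 1544 to 104 of 1515 in the same fits. For the fits against sham cortex and of the arm ratios the calls over all entries or hairpins are not given here. Their ranges are therefore not shown to be particular to the members. Under total counts, RLE factors, DESeq2, no filter and without the 24 h libraries, the 5 rising arms were called in both 12 h comparisons. All entries called in those fits ran from 55 of 1470 (total counts) to 78 of 1182 (DESeq2) against contralateral cortex. Against sham cortex they ran from 36 of 1470 (total counts) to 100 of 1467 (DESeq2). With the replicate block 4 were called against contralateral cortex (miR-3547-5p was lost at 2.52, adjusted p = 0.0617) and 5 against sham cortex. Over all entries the block gave 55 and 66 calls of 1470, against 64 and 80 without it. The block changed no other call of a member at any time. DESeq2 called 1 member, miR-3109-5p, in the difference between 12 h and 3 h, where edgeR called 0. All 3 arm ratios called at 12 h were called under each other setting except leaving out a replicate. Against sham cortex the arm ratio of miR-5627 was also called with a pseudocount of 2 (2.16, adjusted p = 0.0208), and that of miR-346 with the replicate block (2.63, adjusted p = 0.0317). Calls over all entries at 12 h were 36 with total counts against 80 with TMM in the comparison with sham cortex. Total counts moved the median of all entries to 0.12 at 12 h, against -0.03 with TMM, and turned miR-346-5p at 12 h to 0.026. With a replicate left out, values without a call changed sign in miR-3547-3p (-0.64 to 1.35 at 3 h, -0.58 to 1.31 at 6 h), miR-3072-3p (-0.19 to 0.35 at 6 h, -0.48 to 0.54 at 12 h), miR-346-5p (-0.45 to 0.062 at 12 h), and the arm ratios of miR-3109 (-0.14 to 0.11 at 3 h) and miR-3547 (-0.33 to 1.99 at 3 h, -0.32 to 0.85 at 6 h). The cause was not tested. Of 746 other recomputed member values, 73 changed sign and 0 were called.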
